A study of Mus musculus with 6 samples.

Results

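The genes of the mouse mitochondrial chromosome are described here as counted in tibialis anterior muscle of mice with and without an induced loss of Bmal1, a transcription factor of the circadian clock. They were chosen by position: all genes on that chromosome, whose symbols begin with mt-, which are 37 of the 52636 genes in the count tables. The 37 genes comprise 13 mRNA, 2 ribosomal RNA (rRNA) and 22 transfer RNA (tRNA) genes, of which 28 lie on the plus strand of the reference sequence and 9 on the minus strand.

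The study asked how the muscle clock affects skeletal muscle, and the libraries compared here are from 3 iMSBmal1+/+ and 3 iMSBmal1-/- male C57BL/6 mice. Both groups carry floxed Bmal1 and HSA-MCM, a tamoxifen-inducible Cre recombinase under a human skeletal actin promoter, so that recombination is limited to skeletal muscle fibers and other cells of the muscle keep the gene. At 12 to 16 weeks of age, iMSBmal1-/- mice were given 2 mg of tamoxifen a day for 5 days and iMSBmal1+/+ mice the oil and ethanol vehicle, and muscles were collected 5 weeks later. Genotype and tamoxifen therefore cannot be told apart in these libraries. Total RNA was treated with DNase and depleted of rRNA, and a kit that marks the strand of the RNA was used. The strand setting with which reads were then counted on genes is not given in the sources used here. A count below is therefore the deposited count under a gene's name, and which strand's RNA the reads came from is not settled by it. High or low counts under a name are not to be read as much or little RNA of that gene.

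The iMSBmal1+/+ libraries (replicates 1 to 3) held 2091912, 1997203 and 2716079 counts on genes. The iMSBmal1-/- libraries held 2403438, 1616290 and 2068657. A count of 0 allows for as many as 3 counts, or 1.10 to 1.86 CPM (counts relative to library size) at these depths, a floor that reflects counting error alone. No pair of libraries of 1 genotype agreed within sampling noise, with 2.88 to 10.1 for chi-square per degree of freedom, so all 6 entered as separate replicates.

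Arntl, the gene of BMAL1, had 5, 4 and 11 counts in iMSBmal1+/+ and 13, 5 and 5 in iMSBmal1-/- muscle. These counts overlap between the genotypes, fell short of the low-count filter, and are too few to check the labels. Gm45355, which overlaps exons of Arntl by 33 bp on the opposite strand, had 94, 71 and 109 counts in iMSBmal1+/+ and 62, 42 and 93 in iMSBmal1-/- muscle. The groups overlap, and the log2 fold change of Gm45355 was -0.36 (standard error, SE, 0.21, edgeR quasi-likelihood test, adjusted p = 0.544). Fold changes are given throughout as iMSBmal1-/- over iMSBmal1+/+.

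The tissue was checked against 8 markers of skeletal muscle, all of which passed the filter, with the fast myosin gene Myh4 at the most counts. Their summed level was 6632, 9002 and 8272 CPM in iMSBmal1+/+ and 9825, 9890 and 11793 CPM in iMSBmal1-/- libraries. The sums did not overlap between the genotypes (7969 ± 1214 against 10503 ± 1118 CPM, SD, n = 3), and 2 of the 8, Pvalb and Mylpf, were higher in iMSBmal1-/- muscle by edgeR's quasi-likelihood test, beside 0.761% of all tested genes. The 2 genes that face these markers on the opposite strand, Rabep2 at the most counts, had a summed level of 218777 ± 12756 CPM in iMSBmal1+/+ and 216485 ± 10156 CPM in iMSBmal1-/- muscle (SD, n = 3), and the groups overlapped. In each library these facing genes held far more than the markers themselves. Whether reads were counted on the strand opposite their RNA was not tested. Of 6 markers of slow oxidative fibers, Myh7, Tnni1 and Myl2 stayed at 3 counts or fewer, and the summed level, mostly Atp2a2, was 39.4 ± 4.83 against 40.2 ± 5.90 CPM (SD, n = 3).

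Among markers of other cells, 4 of 5 blood genes, the haemoglobin genes Hba-a1, Hba-a2, Hbb-bs and Hbb-bt, had at most 3 counts, and the summed 167 ± 15.4 against 183 ± 25.7 CPM came mostly from Alas2. The adipocyte markers summed to between 7.96 and 12.6 CPM in the 6 libraries, with Fabp4 at the most counts and Adipoq, Plin1 and Cidec at 3 or fewer. The macrophage markers summed to 73.4 ± 15.7 against 57.0 ± 7.45 CPM, mostly Csf1r, with Adgre1, Lyz2 and Ptprc at 3 or fewer. Fibroblast markers, led by Col3a1, had 29.0 ± 11.7 against 34.1 ± 12.3 CPM. Endothelial markers, led by Tek, had 61.5 ± 3.40 against 55.8 ± 16.2 CPM. The sums of these 5 lists overlapped between the genotypes. In bulk muscle, fewer cells of a type and less RNA per cell cannot be told apart, and the part of the markers in the results below was not tested.

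The mitochondrial chromosome is a small circle of DNA that encodes core subunits of the respiratory chain and of ATP synthase, together with the rRNAs and tRNAs that translate them inside the organelle. Both strands are transcribed by a single polymerase into long precursors, in which tRNAs stand between most mRNAs and rRNAs and are cut out to release them. Skeletal muscle is rich in mitochondria, and the proteins that transcribe, process and stabilise these RNAs are encoded in the nucleus.

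Mitochondrial genes held 6.69, 6.79 and 5.06% of the counts of the iMSBmal1+/+ libraries and 6.24, 5.05 and 5.07% of the iMSBmal1-/- libraries. The Wilson 95% interval of each share was within 0.0349 percentage points. Such an interval reflects counting error alone and not the spread between animals, which was far wider. The lowest iMSBmal1+/+ library lay among the iMSBmal1-/- libraries, so that the groups overlap (6.18 ± 0.973% against 5.45 ± 0.681%, SD, n = 3). The difference of the means was -0.72 percentage points. It was -1.29 without iMSBmal1+/+ replicate 3, -1.12 without iMSBmal1-/- replicate 1, -0.47 without iMSBmal1+/+ replicate 1, -0.42 without iMSBmal1+/+ replicate 2, and -0.38 without the genes that have a nuclear copy. When mt-Nd5 and mt-Nd6, which hold most of the counts, were left out, the share was 1.31 against 1.04%. The groups did not overlap in this remainder, with iMSBmal1-/- replicate 1 narrowly below the lowest iMSBmal1+/+ library. The 9 genes of the minus strand held 66.0, 71.2 and 71.7% of the mitochondrial counts in iMSBmal1+/+ and 76.8, 66.1 and 71.8% in iMSBmal1-/- muscle, each with a Wilson 95% interval within 0.325 percentage points. This share overlapped as well (69.7 ± 3.14% against 71.6 ± 5.33%, SD, n = 3). The difference of the means was 1.92 percentage points. With single libraries left out it ranged from -0.70 (without iMSBmal1-/- replicate 1) to 4.63 (without iMSBmal1-/- replicate 2), and it was 0.12 without iMSBmal1+/+ replicate 1 and 2.95 without iMSBmal1+/+ replicate 3. It was -3.15 when mt-Nd5 and mt-Nd6, which overlap each other, were left out of both strands, and -0.053 without the genes that have a nuclear copy. That last setting also leaves out mt-Nd5, and the minus strand then held 97.03% in iMSBmal1+/+ and 96.98% in iMSBmal1-/- muscle. With so little left on the plus strand, it cannot serve as a check on the difference.

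By class, the 749411 mitochondrial counts of the 6 libraries lay mostly on the single minus-strand mRNA gene, mt-Nd6, with 55.6%. The 12 mRNA genes of the plus strand held 28.8%, of which mt-Nd5 alone had 24.1% and the 11 others 4.66%. The 8 tRNA genes of the minus strand held 15.4%. The 2 rRNA genes held 0.150% in libraries depleted of rRNA, and the 14 tRNA genes of the plus strand held 0.105%. The share of the mitochondrial counts on mt-Nd6 ranged from 52.7 to 62.3% over the 6 libraries and was highest in iMSBmal1-/- replicate 1. That of the plus-strand mRNA genes ranged from 23.0 to 33.7% and was lowest in the same library. The share of each class overlapped between the genotypes.

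**Figure D1:**
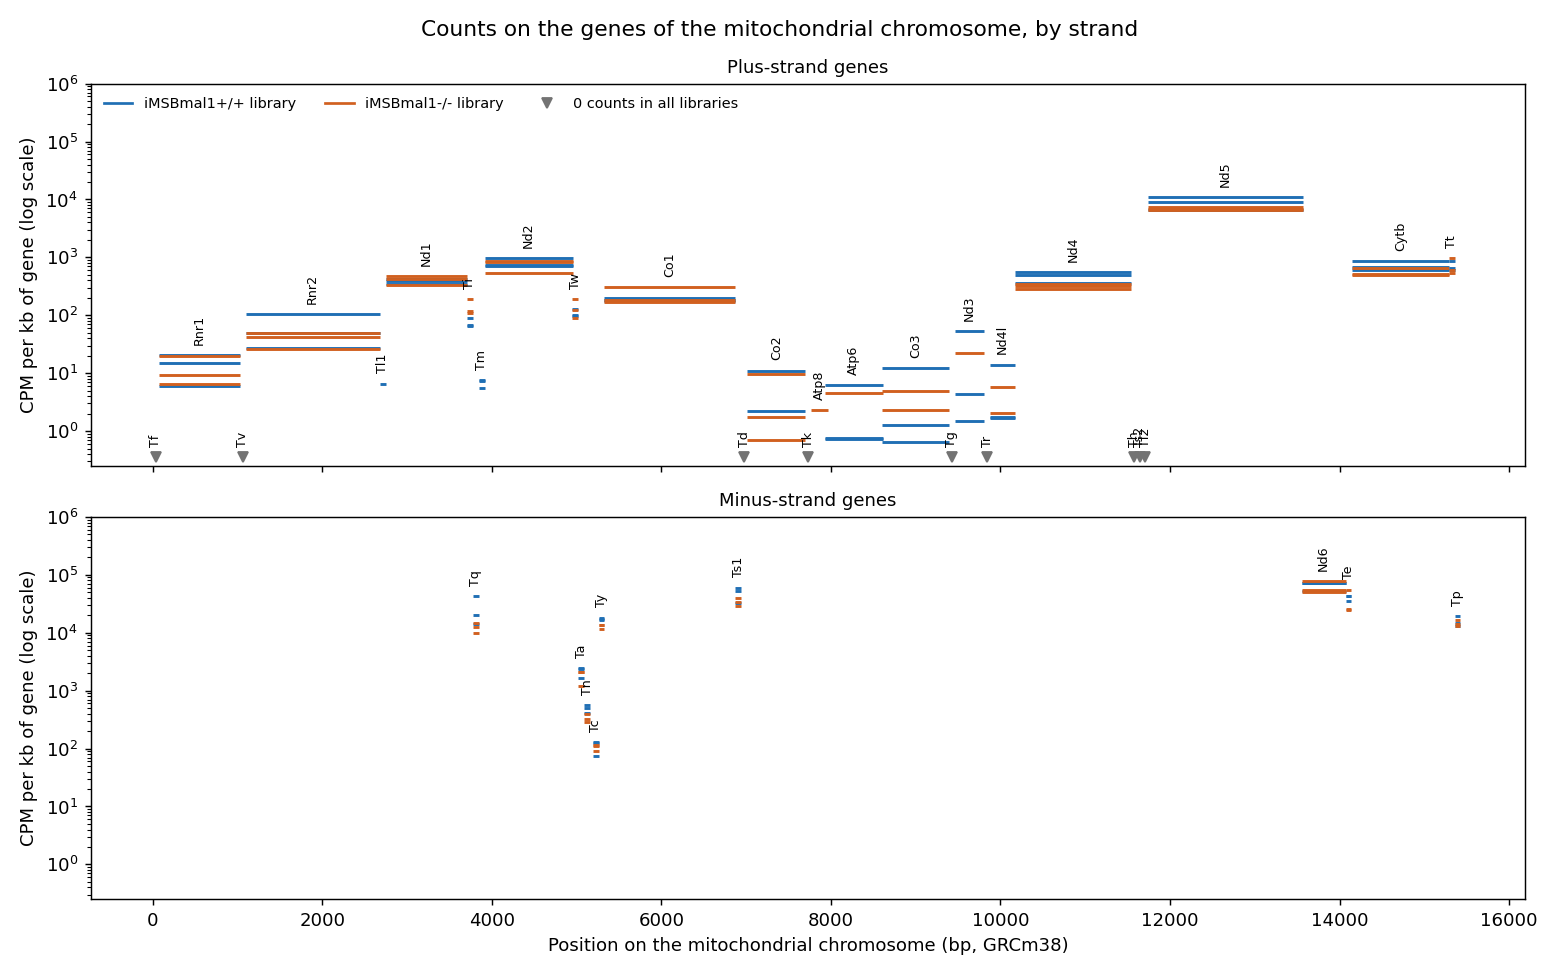
CPM per kb of gene (log scale) against position on the mitochondrial chromosome (bp, GRCm38) for plus-strand genes (top) and minus-strand genes (bottom), with each line spanning a gene in 1 library (blue iMSBmal1+/+, orange iMSBmal1-/-, libraries at 0 counts not drawn) and triangles for 9 tRNA genes at 0 counts in all 6 libraries. mt-Nd6 had the highest value per kb of the mRNA genes, and the genes from mt-Td to mt-Nd4l on the plus strand held 191 counts in all.

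Per length, averaged over the 6 libraries, mt-Nd6 had 63390 CPM per kb and the highest level of the mRNA genes, followed by mt-Nd5 (7922), mt-Nd2 (777), mt-Cytb (637), mt-Nd1 (399) and mt-Nd4 (394). By the means of each genotype, mt-Nd4 was above mt-Nd1 in iMSBmal1+/+ and below it in iMSBmal1-/- muscle. Among tRNA genes, the levels per kb were highest for mt-Ts1 (41202), mt-Te (38027), mt-Tq (19209), mt-Tp (15102) and mt-Ty (15072), all on the minus strand. Their order by the group means differed between the genotypes. It was mt-Ts1, mt-Te, mt-Tq, mt-Ty and mt-Tp by the iMSBmal1+/+ means. By the iMSBmal1-/- means it was mt-Te, mt-Ts1, mt-Tp, mt-Ty and mt-Tq. Libraries of the same genotype did not share these orders. mt-Te was above mt-Ts1 only in iMSBmal1+/+ replicate 1 and iMSBmal1-/- replicate 1, and mt-Tq was highest by far in iMSBmal1+/+ replicate 2. The highest tRNA gene on the plus strand was mt-Tt (710). A sequenced fragment can be longer than a tRNA gene, so that the classes are ranked separately.

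Of the 37 genes, 20 passed the filter on low counts, among them all 9 of the minus strand and 11 of the 28 of the plus strand. By edgeR's quasi-likelihood test with p-values adjusted over all 6831 tested genes, 0 of the 20 were higher and 3 were lower in iMSBmal1-/- muscle, namely mt-Nd4, mt-Ty and mt-Tq. Over all tested genes, 1.83% passed this threshold of 0.05, with 0.761% higher and 1.07% lower. An unadjusted p under 0.05 was obtained for 8 of the 20 genes and for 814 of the 6831. DESeq2 likewise called 0 of the 20 higher, and it called 2 lower, beside 50 higher and 67 lower of all 5506 genes it tested. The log2 fold change was below 0 for 16 of the 20 genes, including all 9 of the minus strand, and above 0 for 4. That is 80.0% below 0, beside 50.2% over all tested genes. The median was -0.18 for the mitochondrial genes and -0.00087 over all tested genes. Over the same 20 mitochondrial genes it was -0.35 without iMSBmal1-/- replicate 1 and -0.31 without iMSBmal1+/+ replicate 3. It was -0.037 without iMSBmal1-/- replicate 3, over 22 genes, and -0.35 without the filter on low counts, over 28 genes. These 22 and 28 genes include some with low counts that are not among the 20. Leaving out single libraries turned the sign of several of these genes, among them mt-Nd6, mt-Te, mt-Tp and mt-Tc on the minus strand. The number of lower genes was 0 without iMSBmal1+/+ replicate 2, without iMSBmal1-/- replicate 2 and without iMSBmal1-/- replicate 3, and 1 without iMSBmal1-/- replicate 1, which was mt-Te and none of the 3 named above. It was 6 of 28 tested genes with no low-count filter. Groups did not overlap in CPM for 3 genes that were lower in iMSBmal1-/- muscle, mt-Nd4, mt-Ty and mt-Tn (8.45% of all tested genes), and for 1 that was higher, mt-Ti (8.84%).

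**Figure D2:**
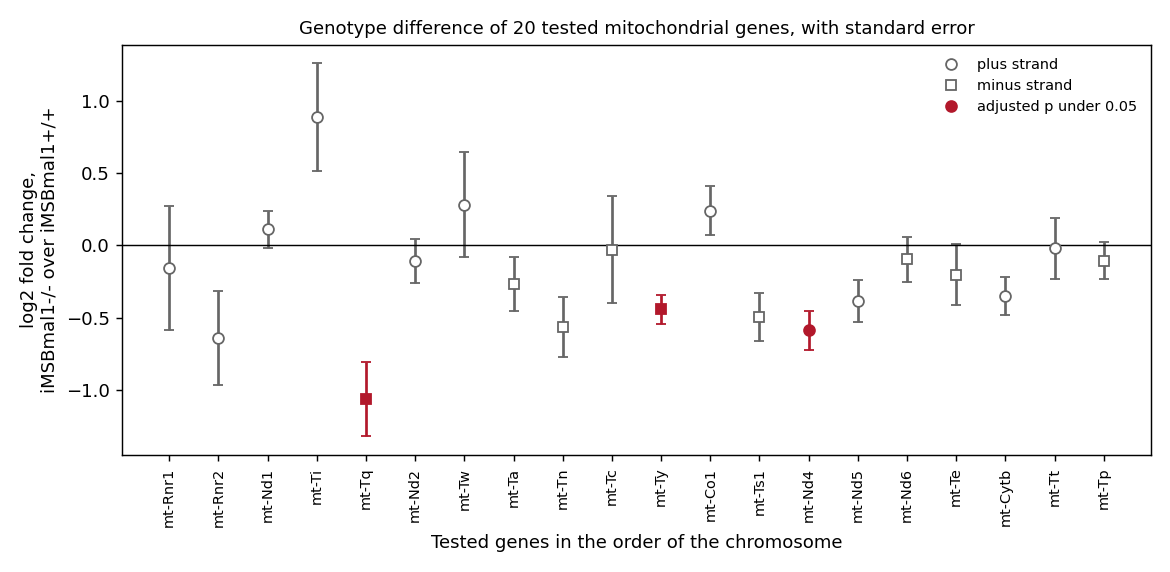
Log2 fold change of iMSBmal1-/- over iMSBmal1+/+ muscle with its standard error (SE) from edgeR, for the 20 tested genes in the order of the chromosome (circles plus strand, squares minus strand, filled red where the adjusted p was under 0.05). mt-Tq, mt-Ty and mt-Nd4 are filled, at -1.06, -0.44 and -0.59.

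The subunits of NADH dehydrogenase (complex I), which passes electrons from NADH into the respiratory chain, are encoded by 7 of the mRNA genes. mt-Nd4, a membrane subunit of its proton-pumping arm, had 1556, 1321 and 1323 counts in iMSBmal1+/+ and 899, 790 and 916 in iMSBmal1-/- muscle. In CPM this was 774, 682 and 502 against 391, 473 and 437. Each iMSBmal1-/- library lay below each iMSBmal1+/+ library, with the smallest gap between iMSBmal1+/+ replicate 3 and iMSBmal1-/- replicate 2. The means were 653 ± 138 and 434 ± 41.1 CPM (SD, n = 3), and mt-Nd4 fell by 0.59 on the log2 scale (SE 0.13, edgeR quasi-likelihood test, adjusted p = 0.0254). With single libraries left out, its log2 fold change was between -0.75 and -0.46 and its adjusted p from edgeR between 0.000777 and 0.144. Of these fits, mt-Nd4 passed the threshold only without iMSBmal1+/+ replicate 3. It passed under 8 of 14 alternatives, most of which used all 6 libraries. As a share of the mitochondrial counts, mt-Nd4 overlapped between the genotypes (1.02 ± 0.0821% against 0.813 ± 0.191%, SD, n = 3).

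mt-Nd5, another membrane subunit of the pumping arm, had 40717, 32517 and 31777 counts in iMSBmal1+/+ and 28487, 22242 and 24928 in iMSBmal1-/- muscle. Scaled to CPM, iMSBmal1+/+ replicate 3 lay among the iMSBmal1-/- libraries, so that the groups overlap. The log2 fold change was -0.38 (SE 0.14, edgeR quasi-likelihood test, adjusted p = 0.246), and without iMSBmal1+/+ replicate 3 it was -0.57 with an adjusted p of 0.00489 from edgeR, while without iMSBmal1+/+ replicate 1 it was -0.21 with an adjusted p of 0.594. Over all alternatives its adjusted p ranged from 0.00196 to 0.594.

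mt-Nd6, the membrane subunit encoded on the minus strand, had 74293, 72449 and 72911 counts in iMSBmal1+/+ and 93484, 42996 and 60703 in iMSBmal1-/- muscle. iMSBmal1-/- replicate 1 was the highest and iMSBmal1-/- replicate 2 the lowest of all 6, so that one group enclosed the other. The log2 fold change was -0.097 (SE 0.15, edgeR quasi-likelihood test, adjusted p = 0.878), within the spread of the replicates. It was 0.039 without iMSBmal1-/- replicate 2 and -0.32 without iMSBmal1-/- replicate 1. mt-Nd5 and mt-Nd6 run towards each other and share 14 bp, from 13552 to 13565 of chrM on GRCm38. The counts of mt-Nd5 were 54.8, 44.9 and 43.6% of those of mt-Nd6 in iMSBmal1+/+ and 30.5, 51.7 and 41.1% in iMSBmal1-/- muscle. The last 60 bases of each gene, taken from GENCODE M21, are shown because these genes held 79.7% of the mitochondrial counts, with the shared bases in capitals. They are chrM:13506-13565 on the plus strand for mt-Nd5 and chrM:13552-13611 on the minus strand for mt-Nd6, both 5′ to 3′ on their own strand.
mt-Nd5: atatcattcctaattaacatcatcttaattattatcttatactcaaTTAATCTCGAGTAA
mt-Nd6: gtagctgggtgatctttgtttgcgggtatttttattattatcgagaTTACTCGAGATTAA

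The base composition of these strands differs: mt-Nd6 has 28.1% G and 5.97% C, whereas the 12 plus-strand mRNA genes have between 5.88 and 16.1% G and a median of 26.0% C. mt-Nd1 and mt-Nd2, membrane subunits near the quinone site and in the pumping arm, had 665 to 946 and 1170 to 2080 counts per library. Their log2 fold changes were 0.11 and -0.11, neither past the threshold, and both changed sign when single libraries were left out. mt-Nd3 and mt-Nd4l, small membrane subunits, were not tested. mt-Nd3 had 3, 1 and 49 counts in iMSBmal1+/+ and 18, 0 and 0 in iMSBmal1-/- muscle.

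**Figure D3:**
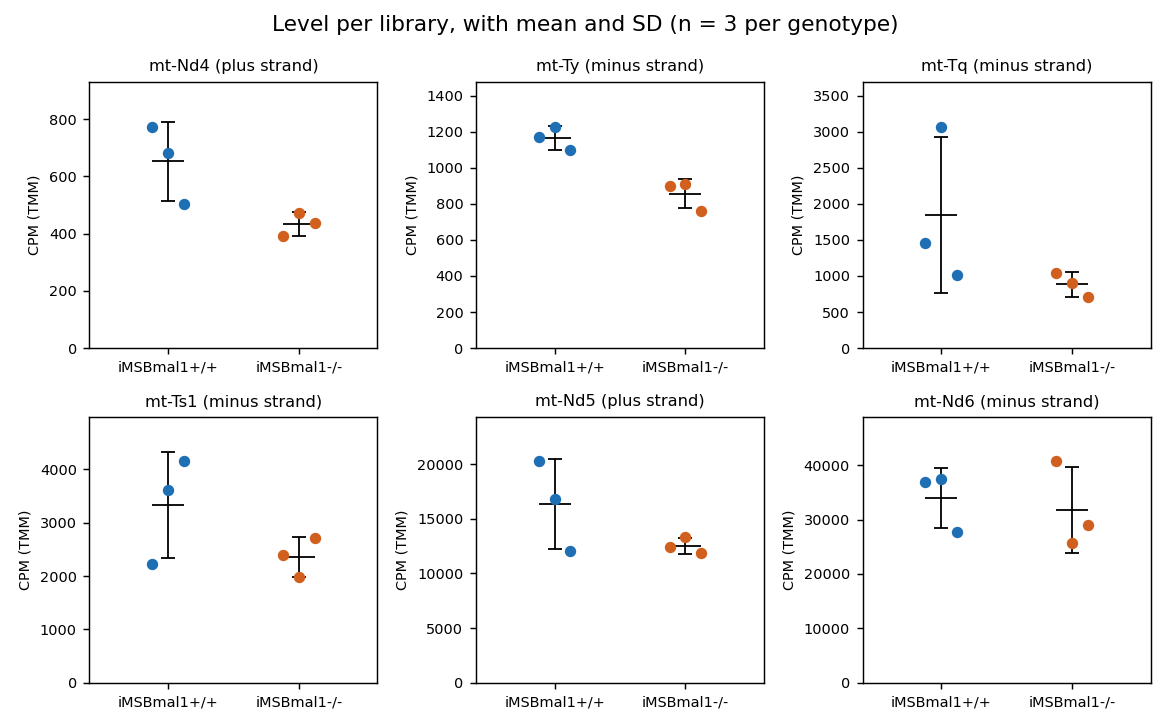
CPM after TMM normalization (edgeR's scaling between libraries) in each library (points; blue iMSBmal1+/+, orange iMSBmal1-/-) with the mean and SD of 3 libraries (lines), for 3 genes past the threshold (top left to right, mt-Nd4, mt-Ty, mt-Tq) and 3 that were not (mt-Ts1, mt-Nd5, mt-Nd6). iMSBmal1+/+ replicate 2 stands apart for mt-Tq at 3069 CPM.

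Outside complex I, mt-Cytb is the cytochrome b of complex III, which hands electrons on to cytochrome c. It had 1970, 1518 and 1813 counts in iMSBmal1+/+ and 1358, 1265 and 1202 in iMSBmal1-/- muscle, which in CPM overlap through iMSBmal1-/- replicate 2. Its log2 fold change was -0.35 (SE 0.13, edgeR quasi-likelihood test, adjusted p = 0.243), and -0.21 without iMSBmal1+/+ replicate 1. mt-Co1, the catalytic subunit of cytochrome c oxidase (complex IV), had 609, 560 and 705 counts in iMSBmal1+/+ and 641, 803 and 543 in iMSBmal1-/- muscle. In CPM, 481 in iMSBmal1-/- replicate 2 was the highest and the other 5 libraries lay between 259 and 303. The log2 fold change of mt-Co1 was 0.24 (SE 0.17, edgeR, adjusted p = 0.646), and -0.085 without that library.

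mt-Co2 and mt-Co3, the other subunits of complex IV that the mitochondrial chromosome encodes, and mt-Atp6 and mt-Atp8, subunits of ATP synthase, had too few counts to be tested. Together with mt-Nd3 and mt-Nd4l they are the 6 mRNA genes between mt-Td and mt-Nd4l on the plus strand, and they had 7, 7 and 116 counts in iMSBmal1+/+ and 53, 6 and 2 in iMSBmal1-/- muscle. iMSBmal1+/+ replicate 3 and iMSBmal1-/- replicate 1 stand apart from the other 4 libraries, and the groups overlap. The 4 tRNA genes that lie among them on the plus strand, mt-Td, mt-Tk, mt-Tg and mt-Tr, had 0 counts in all 6 libraries.

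The 2 rRNA genes encode the RNAs of the small and large subunits of the mitochondrial ribosome. mt-Rnr1 had 40, 28 and 15 counts in iMSBmal1+/+ and 44, 15 and 13 in iMSBmal1-/- muscle, which overlap (log2 fold change -0.16, SE 0.43, edgeR quasi-likelihood test, adjusted p = 0.941). mt-Rnr2 had 160, 325 and 114 counts in iMSBmal1+/+ and 151, 130 and 87 in iMSBmal1-/- muscle. iMSBmal1+/+ replicate 2 was the highest, the groups overlap, and the log2 fold change of -0.64 (SE 0.32, edgeR, adjusted p = 0.456) was 0.011 without that library. Without the filter on low counts mt-Rnr2 passed the threshold (log2 fold change -0.68, edgeR, adjusted p = 0.00500), in a range of adjusted p from 0.00500 to 0.995 over its alternatives.

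The tRNA genes of the minus strand carry glutamine (mt-Tq), alanine (mt-Ta), asparagine (mt-Tn), cysteine (mt-Tc), tyrosine (mt-Ty), serine (mt-Ts1), glutamate (mt-Te) and proline (mt-Tp). mt-Ty had 2351, 2378 and 2886 counts in iMSBmal1+/+ and 2061, 1515 and 1599 in iMSBmal1-/- muscle. In CPM this was 1169, 1228 and 1095 against 897, 908 and 762. All 3 iMSBmal1-/- libraries lay below all 3 iMSBmal1+/+ libraries, by more than the spread within either group. The means were 1164 ± 66.2 and 856 ± 80.8 CPM (SD, n = 3), and mt-Ty fell by 0.44 on the log2 scale (SE 0.10, edgeR quasi-likelihood test, adjusted p = 0.0286). With single libraries left out, its log2 fold change lay between -0.49 and -0.37 and its adjusted p from edgeR between 0.0200 and 0.197. Of these fits, mt-Ty passed the threshold only without iMSBmal1+/+ replicate 3. It passed under 9 of 14 alternatives, most of which used all 6 libraries. As a share of the mitochondrial counts, mt-Ty overlapped between the genotypes (1.85 ± 0.225% against 1.59 ± 0.247%, SD, n = 3).

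mt-Tq had 2925, 5945 and 2670 counts in iMSBmal1+/+ and 2397, 1496 and 1483 in iMSBmal1-/- muscle. In CPM this was 1454, 3069 and 1013 against 1043, 896 and 707. iMSBmal1+/+ replicate 2 was far above the other libraries, and iMSBmal1+/+ replicate 3 lay just below iMSBmal1-/- replicate 1, so that the groups overlap. The means were 1846 ± 1082 and 882 ± 168 CPM (SD, n = 3), and mt-Tq fell by 1.06 on the log2 scale (SE 0.26, edgeR quasi-likelihood test, adjusted p = 0.0384). Without iMSBmal1+/+ replicate 2, the log2 fold change was -0.49 with an adjusted p of 0.176 from edgeR. DESeq2 gave an adjusted p of 0.482, and 7 of 14 alternatives passed the threshold. As a share of the mitochondrial counts, which needs no scaling between libraries, mt-Tq had 2.09, 4.39 and 1.94% in iMSBmal1+/+ and between 1.41 and 1.83% in iMSBmal1-/- muscle. The groups barely separate, and iMSBmal1+/+ replicate 2 stands apart here too. On this scale mt-Ti (0.00824 ± 0.00296% against 0.0183 ± 0.00762%) and mt-Nd1 did not overlap either, with the iMSBmal1-/- libraries above, and neither gene passed the test. The shares of mt-Nd1 were 0.573, 0.535 and 0.630% in iMSBmal1+/+ and 0.631, 0.941 and 0.634% in iMSBmal1-/- muscle, so that the groups barely separate and 1 library, iMSBmal1-/- replicate 2, stands apart. The share of all tested genes that separate on this scale was not computed.

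mt-Ts1, the minus-strand tRNA gene with the most counts, had 4465, 6993 and 10929 in iMSBmal1+/+ and 5488, 3302 and 5690 in iMSBmal1-/- muscle. The iMSBmal1+/+ libraries spread widely in CPM, from 2220 to 4148, and the lowest lay among the iMSBmal1-/- libraries. The log2 fold change was -0.50 (SE 0.17, edgeR quasi-likelihood test, adjusted p = 0.184), and without iMSBmal1+/+ replicate 1 it was -0.73 with an adjusted p of 0.00416 from edgeR, in a range of 0.000130 to 0.669 over its alternatives. Without iMSBmal1+/+ replicate 3 it was -0.31. mt-Te, which adjoins mt-Nd6, had 6068, 5810 and 6355 counts in iMSBmal1+/+ and 8806, 2816 and 3766 in iMSBmal1-/- muscle. As for mt-Nd6, iMSBmal1-/- replicate 1 was the highest and replicate 2 of that group the lowest. The counts of mt-Te were between 6.20 and 9.42% of those of mt-Nd6 in the 6 libraries. Its log2 fold change was -0.20 (SE 0.21, edgeR, adjusted p = 0.797), and -0.70 with an adjusted p of 0.0127 without iMSBmal1-/- replicate 1.

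mt-Tn had 72, 78 and 78 counts in iMSBmal1+/+ and 46, 39 and 58 in iMSBmal1-/- muscle, and in CPM the groups did not overlap. Its log2 fold change of -0.57 (SE 0.21, edgeR quasi-likelihood test, adjusted p = 0.229) did not pass the threshold. mt-Ta (171 to 333 counts per library), mt-Tp (1552 to 2565) and mt-Tc (12 to 17) overlapped between the genotypes, with log2 fold changes of -0.27, -0.11 and -0.030, none past the threshold. That of mt-Ta was -0.038 without iMSBmal1-/- replicate 3 and -0.44 without iMSBmal1+/+ replicate 3.

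These minus-strand tRNA genes lie beside or between plus-strand mRNA genes. mt-Ty lies 1 bp before mt-Co1, and mt-Ts1 overlaps the last 3 bp of mt-Co1 (6870 to 6872). mt-Te lies 5 bp before mt-Cytb, and mt-Tp 67 bp after it. mt-Tq lies 64 bp after mt-Nd1 and 71 bp before mt-Nd2, and shares 3 bp (3772 to 3774) with mt-Ti on the plus strand. mt-Ta, mt-Tn and mt-Tc, with fewer counts, lie 66, 137 and 240 bp after mt-Nd2. The sequences of both tRNA genes past the threshold and of the most counted ones are shown from GENCODE M21 on GRCm38, 5′ to 3′ on the minus strand, with the anticodon in capitals. They are chrM:3772-3842 for mt-Tq, chrM:5260-5326 for mt-Ty, chrM:6870-6938 for mt-Ts1 and chrM:14071-14139 for mt-Te.
mt-Tq: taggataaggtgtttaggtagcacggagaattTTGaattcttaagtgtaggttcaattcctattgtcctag
mt-Ty: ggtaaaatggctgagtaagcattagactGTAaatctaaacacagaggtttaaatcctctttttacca
mt-Ts1: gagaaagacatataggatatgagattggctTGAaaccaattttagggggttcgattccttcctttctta
mt-Te: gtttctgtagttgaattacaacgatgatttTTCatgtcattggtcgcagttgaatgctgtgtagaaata

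Of the 14 tRNA genes on the plus strand, 9 had 0 counts in all 6 libraries (mt-Tf, mt-Tv, mt-Td, mt-Tk, mt-Tg, mt-Tr, mt-Th, mt-Ts2 and mt-Tl2), and mt-Tl1 and mt-Tm had at most 3 in all. These 11 did not exceed the floor of 3 counts, so that no fold change is given. The 3 others were tested. mt-Ti, the isoleucine tRNA gene, had 9, 9 and 16 counts in iMSBmal1+/+ and 19, 22 and 16 in iMSBmal1-/- muscle. In CPM, all iMSBmal1-/- libraries lay above all iMSBmal1+/+ libraries, and the log2 fold change was 0.89 (SE 0.37, edgeR quasi-likelihood test, adjusted p = 0.332), not past the threshold. mt-Tt, for threonine, had 116, 79 and 117 counts in iMSBmal1+/+ and 84, 110 and 84 in iMSBmal1-/- muscle, with a log2 fold change of -0.020. mt-Tw, for tryptophan, had 13 to 21 counts per library and a log2 fold change of 0.28.

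Parts of the mitochondrial chromosome have near-identical copies in nuclear DNA, with which a gene may share reads. Among annotated nuclear transcripts, 11 copies with at least 95% identity over at least 100 bp were found, of 9 mitochondrial genes, and they held 272 counts in all libraries. At 99% identity, 7 copies of 7 genes remained, all on chromosome 1 of GRCm38 between 24611535 and 24616197, in a stretch that matches positions 6390 to 11042 of the mitochondrial chromosome. The 3 copies with the most counts were Gm28438 (61, a copy of mt-Nd3), Gm28439 (53) and Gm29216 (37, a copy of the end of mt-Co1). Gm28439 is identical to the first 876 bp of mt-Nd4, which is 63.6% of that gene, so that the counts of mt-Nd4 are uncertain by any reads assigned between them.

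For 5 genes, mt-Co2, mt-Atp6, mt-Co3, mt-Nd3 and mt-Nd4l, the copy covered at least 95% of the gene at 99% identity or more. These 5 genes had 7, 7 and 116 counts in iMSBmal1+/+ and 53, 6 and 1 in iMSBmal1-/- muscle. The 7 copies on chromosome 1 had 41, 41 and 45 counts in iMSBmal1+/+ and 31, 49 and 21 in iMSBmal1-/- muscle, and neither iMSBmal1+/+ replicate 3 nor iMSBmal1-/- replicate 1 stands apart there. The levels of the 5 genes are therefore uncertain.

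The nuclear genes of mitochondrial gene expression were taken from a list of 56 names, of which 55 were found in the tables. By edgeR's quasi-likelihood test, 17 of the 55 could be tested and 0 passed the threshold in either direction, beside 1.83% called over all tested genes. An unadjusted p under 0.05 was obtained for 4 of the 17 and for 814 of the 6831 genes. DESeq2 also called 0 of the list. The median log2 fold change was -0.021, from -0.37 to 0.61, beside -0.00087 over all tested genes. By role, 3 of 10 genes of transcription, 2 of 12 of RNA processing and modification, 5 of 13 of RNA stability and decay, 2 of 11 of DNA replication and maintenance, and 5 of 9 regulators of mitochondrial biogenesis were tested.

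Most leading members of this pathway had too few counts under their names to be tested. As the strand setting is not given, whether their RNA was scarce cannot be told from these counts. Polrmt, the mitochondrial RNA polymerase, had 3, 1 and 5 counts in iMSBmal1+/+ and 3, 1 and 2 in iMSBmal1-/- muscle. Tfam, which packages the DNA and opens its promoters, reached 2 counts at most, as did Tefm, the elongation factor. Lrpprc, which stabilises mitochondrial mRNAs, had at most 5, and Ppargc1a, a coactivator of mitochondrial biogenesis, had at most 9. None of these 5 genes has exons that face another annotated gene.

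On the opposite strand of the listed genes, 27 facing genes were found, of which 23 were tested, 1 was higher and 0 were lower in iMSBmal1-/- muscle, beside 0.761% higher and 1.07% lower over all tested genes. Snw1, a splicing and transcription cofactor, overlaps exons of Slirp, the partner of LRPPRC, by 2914 bp. Which of these genes the reads counted under either name came from is not settled, since the strand setting is not given. Snw1 had 215, 234 and 288 counts in iMSBmal1+/+ and 354, 278 and 324 in iMSBmal1-/- muscle, and in CPM each iMSBmal1-/- library lay above each iMSBmal1+/+ library. Its log2 fold change was 0.49 (SE 0.12, edgeR quasi-likelihood test, adjusted p = 0.0338). Slirp itself had 575, 512 and 852 counts in iMSBmal1+/+ and 567, 402 and 502 in iMSBmal1-/- muscle, or 291 ± 29.9 against 242 ± 3.89 CPM (SD, n = 3). In CPM each iMSBmal1-/- library lay below each iMSBmal1+/+ library, and the log2 fold change of -0.27 (SE 0.11, edgeR quasi-likelihood test, adjusted p = 0.309) did not pass the threshold. Other tested genes of the list separated in CPM too. Fastkd1 (log2 fold change -0.35) lay lower in iMSBmal1-/- muscle, while 1110008L16Rik (0.45), Ptcd1 (0.30) and Ppargc1b (0.61) lay higher. None of them passed the threshold. Over all tested genes, 8.45% separated with iMSBmal1-/- lower and 8.84% with it higher.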

How the data were processed

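Reads had been aligned by the authors using HISAT2 (mm10) and assigned to genes using HTSeq; versions and the strand setting are not given in the sources used here. The deposited raw table holds whole-number counts of 52636 genes without normalization. The deposited normalized table holds a signal per gene that equals the raw count divided by 1 DESeq2 size factor per library, between 0.828 and 1.26. Columns were assigned by the sample labels. Of the gene identifiers, 52489 were found in GENCODE mouse release 21 (GRCm38), which gave strand, class and coordinates.

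Raw counts were normalized with TMM after edgeR's filter on low counts, and the genotypes were compared with edgeR 4.0.16 (R 4.3.3) over 6831 genes, two-sided, with Benjamini-Hochberg adjustment at 0.05. Shares per library are given with Wilson 95% intervals from scipy 1.17.1, without a test, since 3 libraries against 3 cannot pass an exact permutation test. The tests were tried on simulated data, in which changes of genes with few counts were often missed. Their first pass criterion failed for that reason and was reset, after this had been seen, to genes with more counts. A p above the threshold therefore says little for mt-Ti, mt-Tw, mt-Tc and mt-Rnr1. Nuclear copies were searched with BLAST 2.17.0 among annotated nuclear transcripts, in place of the planned search of the nuclear chromosomes, which were not used here. Alternatives were DESeq2 1.42.0, no filter on low counts, at least 10 counts in every library, upper-quartile factors, library sizes from nuclear genes, TMM from nuclear genes, limma 3.58.1 on log2(normalized value + 1), a block for the replicate number, and each library left out.

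The text names all members, every listed nuclear or facing gene past the threshold, and Polrmt, Tfam, Tefm, Lrpprc and Ppargc1a. It also names the 3 nuclear copies with the most counts, Arntl with its facing gene Gm45355, and Rabep2. Marker genes are named where they had the most counts, stayed at 3 or fewer, or passed the threshold. Slirp and the other listed genes that separated in CPM were added after their values were seen. The members and lists were chosen with earlier results of these data known. The result of 1 marker list is not reported here.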

Additional observations from a re-analysis of the deposited data

How the results depend on the processing

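Of 279 log2 fold changes of the 20 tested mitochondrial genes over 14 alternatives, 235 kept their direction and their side of the threshold, 18 were no longer past it, 7 passed it newly and 19 changed sign, and the cause was not tested; mt-Ti could not be tested with at least 10 counts in every library. With library sizes from nuclear genes, mt-Tc was at 0.0057 and mt-Tt at 0.022. With single libraries left out, log2 fold changes that crossed 0 ranged from -0.80 to 0.26 for mt-Rnr1, -1.01 to 0.011 for mt-Rnr2, -0.0046 to 0.25 for mt-Nd1, -0.24 to 0.082 for mt-Nd2, -0.015 to 0.50 for mt-Tw, -0.27 to 0.098 for mt-Tc, -0.085 to 0.40 for mt-Co1, -0.32 to 0.039 for mt-Nd6, -0.70 to 0.0083 for mt-Te, -0.31 to 0.13 for mt-Tt and -0.23 to 0.057 for mt-Tp. The number of mitochondrial genes called was 3 of 20 tested. It was 6 of 28 without the filter on low counts, 1 with library sizes from nuclear genes, and 0 to 4 with single libraries left out. Over all genes it was 125, and 219 without the filter and 60 to 109 with single libraries left out. The nuclear list had 0 called genes in each alternative. The minus-strand share differed by 1.92 percentage points, by -3.15 without mt-Nd5 and mt-Nd6, and by -0.70 to 4.63 with single libraries left out. The mitochondrial share differed by -0.72 percentage points, and by -1.29 to -0.42 with single libraries left out. With the replicate number as a block, 220 genes were called over all genes and 4 mitochondrial ones; the numbers do not pair the libraries, since same-numbered libraries had correlations of -0.0373, -0.0166 and -0.0289 in their deviations from the group means. The number of mitochondrial genes with a nuclear copy went from 9 to 7 at 99% identity. No genotype difference can be read for genes at or under the floor of 3 counts, among them 11 of the 14 plus-strand tRNA genes.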
